A study of Mus musculus with 11 samples.

Results

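The genes described here are those of MHC class II antigen presentation, 10 genes listed by symbol that encode the class II chains, the invariant chain, the peptide editors and the transactivator of the pathway. Of these 10, 9 had a value in every mouse among the 15453 genes of the tables, and H2-DMb2 had no row. Expression was measured by serial analysis of gene expression (SAGE), which counts 1 short tag per transcript, in the epididymal fat depot (eWAT) of 11 C57BL/6 males. The groups were 6 wildtype (WT) mice and 5 mice that inherited an inactivated Mest allele from the father (pKO). All were 16 weeks old and had received a high fat diet from 8 weeks of age, so no group on another diet bears on these values. Mest is imprinted and expressed from the paternal allele, and the inactivated allele lacks exon 3 in every tissue, since it was deleted in the germline with EIIa-cre. The mice were picked from a larger cohort, and the WT mice were the fatter ones, so genotype and adiposity cannot be told apart in these libraries.

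MHC class II molecules display peptides from the endosomal pathway to CD4+ T cells and are carried mainly by dendritic cells, macrophages and B cells. The α and β chains assemble with the invariant chain Cd74, which fills the groove until it is degraded to a short fragment. H2-DM, made of H2-DMa and a β chain from H2-DMb1 or H2-DMb2, exchanges that fragment for peptide, and H2-O, made of H2-Oa and H2-Ob, restrains H2-DM. Transcription of these genes depends on Ciita, which binds no DNA itself and is recruited to factors assembled on the X and Y boxes of the promoters. In fat, macrophages gather as obesity develops, and C57BL/6 mice make no I-E molecule because the E α gene is defective, although its β chain gene H2-Eb1 is transcribed.

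The promoter stretches around the Y box letters are shown first, because the X and Y boxes are the sequence feature through which Ciita acts on these genes. RefSeq windows of 300 bases on GRCm38.p6, from 250 before to 50 after each start, were at hand for 7 of the 10 members. H2-Ab1, Cd74 and Ciita had no entry. Capitals mark the Y box letters GATTGG and the X box letters, which were chosen after these windows had been seen.
H2-Eb1: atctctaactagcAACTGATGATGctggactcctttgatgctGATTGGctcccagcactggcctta
H2-DMb1: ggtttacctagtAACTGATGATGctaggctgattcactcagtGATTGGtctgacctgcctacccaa
H2-DMb2: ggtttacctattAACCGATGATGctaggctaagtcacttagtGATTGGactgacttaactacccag
H2-Ob: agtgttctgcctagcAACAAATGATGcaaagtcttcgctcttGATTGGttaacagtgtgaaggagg
H2-Aa: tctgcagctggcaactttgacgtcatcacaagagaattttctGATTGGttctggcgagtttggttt
H2-Oa: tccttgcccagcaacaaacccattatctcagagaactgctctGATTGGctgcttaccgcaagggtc
These lie at chr17:34305765-34305830 (H2-Eb1), chr17:34153087-34153152 (H2-DMb1), chr17:34145116-34145181 (H2-DMb2) and chr17:34238805-34238870 (H2-Ob) on the plus strand. The H2-Aa stretch is chr17:34287849-34287914 on the minus strand, and that of H2-Oa is chr17:34092293-34092358 on the plus strand.

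The Y box letters were present in a window of all 7 of these genes, searched on both strands, and in 16.1% of all 32851 windows. For H2-DMa they were found in its second window only, 199 bases before the start, while those in the printed stretches lay 44 to 91 bases before it. The X box letters (AAC, then 2 bases of any kind, then ATGATG) were present in H2-Eb1, H2-DMb1, H2-DMb2 and H2-Ob and in 0.137% of all windows, and both motifs together in 11 windows, 0.0335% of all. The gap from the X to the Y box was 18 bases in H2-Eb1, 19 in H2-DMb1 and in H2-DMb2, and 16 in H2-Ob. The motifs do not overlap each other. A match is a run of letters in a window and was not tested as a binding site. An X box with other letters would be missed, so the lack of a match in H2-Aa, H2-Oa and H2-DMa does not show that they have none.

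The tags that stand for the class II chains and the H2-DM chains are shown next, because a tag sets which transcripts a value can include. Each is the 27 bases from the 3′-most NlaIII site (CATG, in capitals) with a full window, predicted from the principal coding transcript of GENCODE M21 on GRCm38, and the tags counted by the authors were not listed in the sources used here.
H2-Aa: CATGgtgttctttctcttcttcaagtg
H2-Ab1: CATGgtactattgtatccaccacctca
H2-Eb1: CATGggagttattgtataagaaataaa
H2-DMa: CATGggcattgtcttcttcctctgctc
H2-DMb1: CATGgatgaagaatgggcagcttgtcc
H2-DMb2: CATGcccggcttccgatgtgtaacagc
The H2-Aa tag is at chr17:34282927-34282953 on the minus strand, in the 3′ UTR within exon 5. On the plus strand, those of H2-Ab1 (chr17:34269215-34269241) and H2-Eb1 (chr17:34316633-34316659) lie in the 3′ UTR within exon 6. The H2-DMa tag (chr17:34138489-34138515) is in coding sequence of exon 5, and that of H2-DMb1 (chr17:34157351-34157377) is in coding sequence of exon 3 of 6. None of these tags was shared with another annotated gene, nor were those of H2-Oa, H2-Ob, Cd74 and Ciita, which are not printed. The predicted tags of the neighbours H2-DMb1 and H2-DMb2 match at 8 of 27 bases, so these predicted tags are distinct. The tags of their other transcripts were not compared. Whether the value of H2-DMb1 includes reads of H2-DMb2, which has no row, was not tested. The H2-Eb1 tag begins 42 bases before the transcript end, and the 5 annotated transcripts of that gene carry 3 different tags. Several tags were predicted for other members too, such as 3 for H2-Aa, 4 for H2-Ab1 and 6 for Ciita, while H2-Oa and H2-DMb2 had 1.

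Between 9659740 and 14825727 tags were recovered per WT library and between 11320342 and 14626803 per pKO library. Normalized tags of Mest, the targeted gene, were 20756 to 27897 for WT and 793 to 2275 for pKO libraries, so the labels and the genotypes matched in all 11 mice (exact permutation test, two-sided, p = 0.0022, the smallest possible). The defining adipocyte genes were abundant throughout, with a summed level of 742772 to 1154510 in WT and 795723 to 1162990 in pKO mice. Most of that sum was Fabp4 (mean 675232 over the 11 mice), and the lowest mean of the list was that of Plin1 (2662). Of 8 epididymis markers only Adam7 was measured, at 0 to 43.8 normalized tags.

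Class II transcripts ranged from among the most abundant in the tissue to a handful of tags. Because SAGE counts 1 tag per transcript, the levels of different genes are compared here without a length correction, although recovery of a tag can differ by site. Cd74 had the highest mean over the 11 mice at 36420 normalized tags, above 99.8% of genes, and exceeded H2-Aa by 2.47 to 4.29 times in every mouse. H2-Aa averaged 12174 and exceeded H2-Ab1, at 5356, in 11 of 11 mice. H2-Eb1 followed at 2887 and H2-DMa at 699. H2-Ab1 was above H2-Eb1 in 10 of 11 mice, as was H2-Eb1 above H2-DMa, so each of these neighbours overlapped in 1 mouse. A wide step followed, since H2-DMa exceeded H2-Ob by 8.70 to 18.02 times in every mouse. H2-Ob (mean 51.4) and H2-DMb1 (41.2) could not be ordered, with H2-Ob higher in 6 of 11 mice. Ciita averaged 16.7 and H2-Oa 4.15 normalized tags. Cd74, H2-Aa and H2-Ab1 together made up 93.7% of the tags of the 9 genes.

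**Figure D1:**
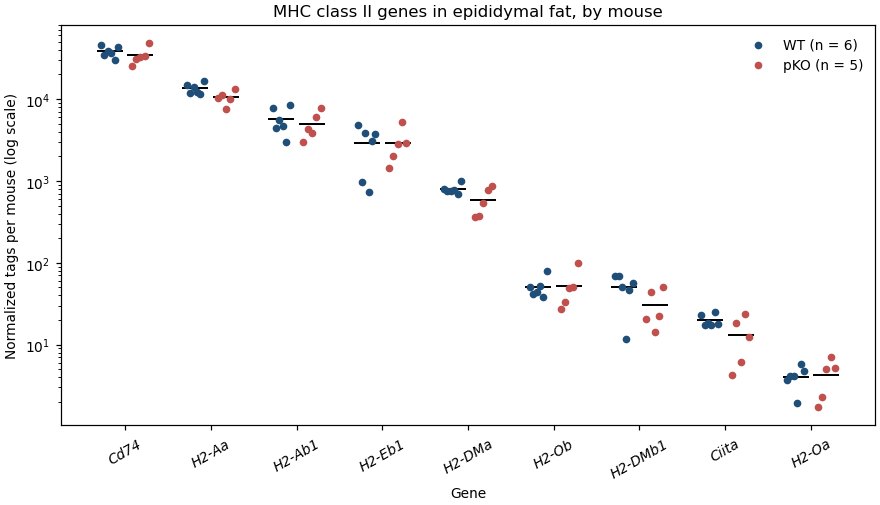
Normalized tags (log scale) of the 9 MHC class II genes in each of 6 WT and 5 pKO mice, with 1 point per mouse. Cd74 is at 25747 or more in every mouse and H2-Oa at 7.06 or less, and the genotypes overlap in all 9 genes.

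No class II gene differed between the genotypes after adjustment over all genes (limma, adjusted p 0.484 to 0.992 for the 9 genes), against 0.0324% of all genes called at an adjusted p of at most 0.1. At an unadjusted p of at most 0.05, 3 of the 9 were lower in pKO mice (H2-Aa, H2-DMa and Ciita) and 0 were higher, where 5.35% of all genes were lower and 4.2% were higher. The log2 difference, pKO minus WT on the log2(value + 1) scale, was below 0 in 8 of 9 genes (6 of 9 by edgeR and by DESeq2) and had a median of -0.18, beside -0.0025 over all genes, of which 50.4% were below 0. Several members moved together from mouse to mouse, so these signs are not separate observations. In none of the 9 did the ranges of the genotypes lie apart, against 1.24% of all genes. By the quasi-likelihood test of edgeR and by DESeq2 on the recovered whole tags, the number lower at an unadjusted p of at most 0.05 was 1 (H2-Aa). In limma it was 0 when WT replicate 1, WT replicate 6 or pKO replicate 3 was left out, and 1 without WT replicate 3 or pKO replicate 1. In bulk tissue, fewer cells of a type and less RNA per cell cannot be told apart.

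H2-Aa, the α chain of the I-A molecule, had the lowest exact permutation p of the 9 genes. WT mice had 11575 normalized tags at the lowest, 13006 at the median and 16848 at the highest. The 5 pKO mice had 10443, 11368, 7625, 10020 and 13293. Thus 4 of 5 pKO mice were below the lowest WT mouse, and pKO replicate 5 was within the WT range. WT mice averaged 13527 ± 2066 (SD, n = 6) and pKO mice 10550 ± 2064 (SD, n = 5), 78.0% of the WT mean. The log2 difference was -0.37 (standard error 0.16, 95% interval -0.71 to -0.03; limma, adjusted p = 0.491). The exact permutation test of this gene alone gave p = 0.0303, so the difference did not hold once adjusted over all genes.

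H2-Ab1, the β chain partner of H2-Aa, had 2980, 5108 and 8441 normalized tags at the lowest, median and highest of WT mice, and 3002, 4353, 3890, 5971 and 7713 in pKO mice. The groups overlapped over nearly their whole range. The log2 difference of -0.18 (standard error 0.28, 95% interval -0.79 to 0.44) did not pass the exact permutation test (p = 0.604), and it ran from -0.35 without pKO replicate 5 to -0.012 without pKO replicate 1. H2-Eb1, the β chain of I-E, was the most variable abundant member, at 743, 3416 and 4849 in WT mice. The pKO mice had 1453, 2017, 2805, 5296 and 2937. WT replicates 2 and 4 were at 982 and 743, far below the other WT mice, and the log2 difference of 0.18 had an interval of -0.86 to 1.23 (exact permutation test, p = 0.76).

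Cd74, the invariant chain, was at 30366 in the lowest WT mouse, 37547 at the median and 45649 in the highest. The pKO mice had 25747, 30978, 32722, 33450 and 48556. Only pKO replicate 1 was below the lowest WT mouse, and pKO replicate 5 was the highest of all 11. WT mice averaged 38194 ± 5587 (SD, n = 6) and pKO mice 34291 ± 8524 (SD, n = 5). The log2 difference was -0.17 (standard error 0.17, 95% interval -0.54 to 0.19), and the exact permutation test gave p = 0.316. It ran from -0.31 without pKO replicate 5 to -0.079 without pKO replicate 1.

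Among the peptide editors, H2-DMa, the α chain of H2-DM, had 683, 767 and 998 at the lowest, median and highest of the WT mice. The pKO mice had 366, 376, 530, 783 and 864 normalized tags. The first 3 of these lay below every WT mouse and the other 2 lay within the WT range. The means were 795 ± 107 (SD, n = 6) and 584 ± 230 (SD, n = 5), with a log2 difference of -0.53 (standard error 0.22, 95% interval -1.003 to -0.05; limma, adjusted p = 0.484). The exact permutation test gave p = 0.0736. H2-DMb1, its β chain, had 11.7 to 68.5 in WT (median 54.0) and 20.6, 43.5, 14.2, 22.1 and 50.1 in pKO mice. All 5 pKO mice were below the WT median, while WT replicate 4 was the lowest of all mice, and the log2 difference of -0.69 had an interval of -1.65 to 0.26 (exact permutation test, p = 0.206). Without WT replicate 4 it was -1.06 and passed an unadjusted p of at most 0.05 (limma, adjusted p = 0.398). It did not pass with any other mouse left out, and was -0.48 without pKO replicate 3 (limma, adjusted p = 0.839).

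No difference was detected in the H2-O chains. H2-Ob was at 38.6 to 79.5 in WT (median 46.9) and 27.5, 33.2, 49.9, 50.3 and 99.3 in pKO mice, with a log2 difference of -0.07 (standard error 0.30; exact permutation test, p = 0.816). Its sign turned with edgeR and DESeq2, as did that of H2-Oa. H2-Oa rested on 2 to 6 tags per WT library and 2 to 8 per pKO library, too few to show a difference at this depth (log2 difference -0.02, standard error 0.37).

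Ciita, the transactivator, was measured at one of the lowest levels. WT mice had 17.4, 18.1 and 25.1 normalized tags at the lowest, median and highest, from 15 to 26 counted tags. The pKO mice had 4.29, 18.3, 6.11, 23.8 and 12.3, from 5 to 27 counted tags. In 3 of 5 pKO mice the level was below every WT mouse and in the other 2 it was within the WT range. The log2 difference was -0.79 (standard error 0.37, 95% interval -1.58 to -0.0037; limma, adjusted p = 0.521), and the exact permutation test gave p = 0.0649. Without pKO replicate 1 the log2 difference was -0.50. Counts of this size carry a counting error of 22.1% in WT and 27.5% in pKO mice, beside a spread between mice of 16.6% and 63.3%.

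**Figure D2:**
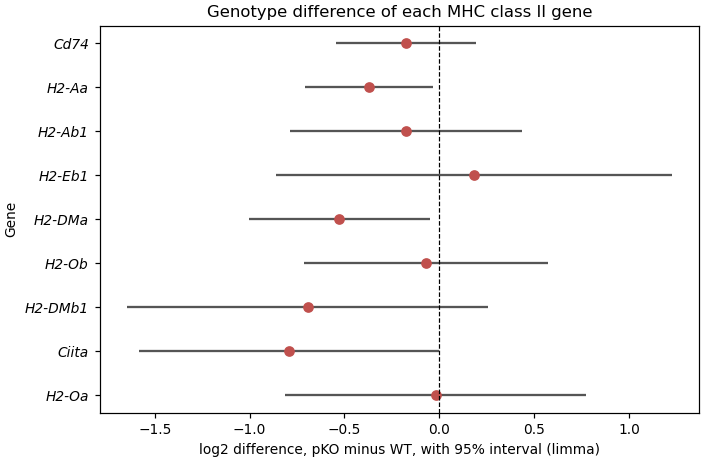
Log2 difference, pKO minus WT, of each MHC class II gene with its 95% interval from limma. The intervals of H2-Aa, H2-DMa and Ciita lie below 0 and the other 6 include 0.

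Spread between mice exceeded counting error by a wide margin in the abundant members. The coefficient of variation of Cd74 was 14.6% in WT and 24.9% in pKO mice, where tag counting alone gives 0.505% and 0.535%. That of H2-Eb1 was 57.7% and 50.6%, and its highest mouse had 7.13 times the tags of its lowest. For H2-DMa it was 13.5% in WT and 39.4% in pKO mice. H2-Oa (31.3% against a counting error of 49.0% in WT mice) and Ciita in WT mice varied no more than counting allows.

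**Figure D3:**
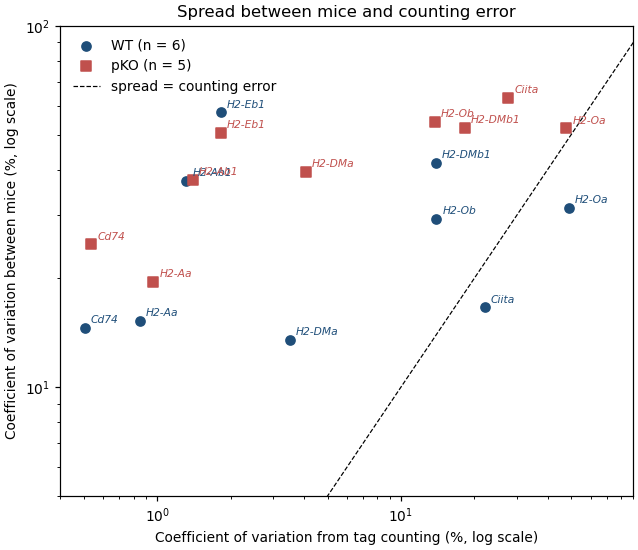
Coefficient of variation between mice against that from tag counting alone, both in percent on log scales, for each gene in WT (n = 6) and pKO (n = 5) mice. Points near the dashed line, such as H2-Oa and WT Ciita, vary by about counting error, and the abundant genes lie far above it.

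Ratios between members within a mouse do not depend on the scaling of a library. None of 5 ratios passed the test between genotypes (exact permutation test, adjusted p 0.433 to 0.998). Cd74 to H2-Ab1 averaged 7.28 ± 1.79 (SD, n = 6) for WT mice and 7.20 ± 1.297 (SD, n = 5) for pKO mice, and lay between 5.12 and 10.2 in single mice. H2-Aa to H2-Ab1, the ratio of the paired I-A chains, was 2.59 ± 0.713 in WT and 2.29 ± 0.761 in pKO mice. H2-Eb1 to H2-Ab1 varied most, from 0.160 to 1.04.

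From mouse to mouse, 4 of 8 members followed Cd74 over all 11 mice (Pearson on log2 values, permutation test with 100000 resamples, adjusted over the 8 members). H2-Ab1 had r = 0.91 (adjusted p = 0.00112; rho 0.89, adjusted p = 0.00416), H2-Ob had r = 0.85 (adjusted p = 0.00232; rho 0.81, adjusted p = 0.0105), H2-DMa had r = 0.79 (adjusted p = 0.00837; rho 0.86, adjusted p = 0.00464), and H2-Aa had r = 0.67 (adjusted p = 0.048; rho 0.79, adjusted p = 0.0106). Without pKO replicates 1 and 5, the mice farthest from the median of Cd74, these were 0.88, 0.67, 0.68 and 0.74. With each genotype centred on its own mean, the relation held for H2-Ab1 (r = 0.92, adjusted p = 0.000926 by exact permutation within genotypes), H2-DMa (r = 0.78, adjusted p = 0.0031) and H2-Ob (r = 0.88, adjusted p = 0.00386) while H2-Aa no longer passed (r = 0.62, adjusted p = 0.15). Without pKO replicate 1, the calls fell to 2 of 8. Over all 11 mice, H2-Eb1 (r = 0.35), H2-DMb1 (0.47), Ciita (0.39) and H2-Oa (0.33) did not reach the threshold. In the 6 WT mice alone, only H2-Ab1 passed on r (r = 0.98, adjusted p = 0.0333 by exact permutation). H2-Aa (r = 0.87), H2-DMa (0.74) and H2-Ob (0.68) did not pass there. No member passed on rho in those mice (exact permutation, lowest adjusted p 0.0667). All values come from the same libraries and share their depth and scaling. pKO replicate 1 was the lowest of all mice in 5 of 9 members and WT replicate 6 the highest in 3.

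**Figure D4:**
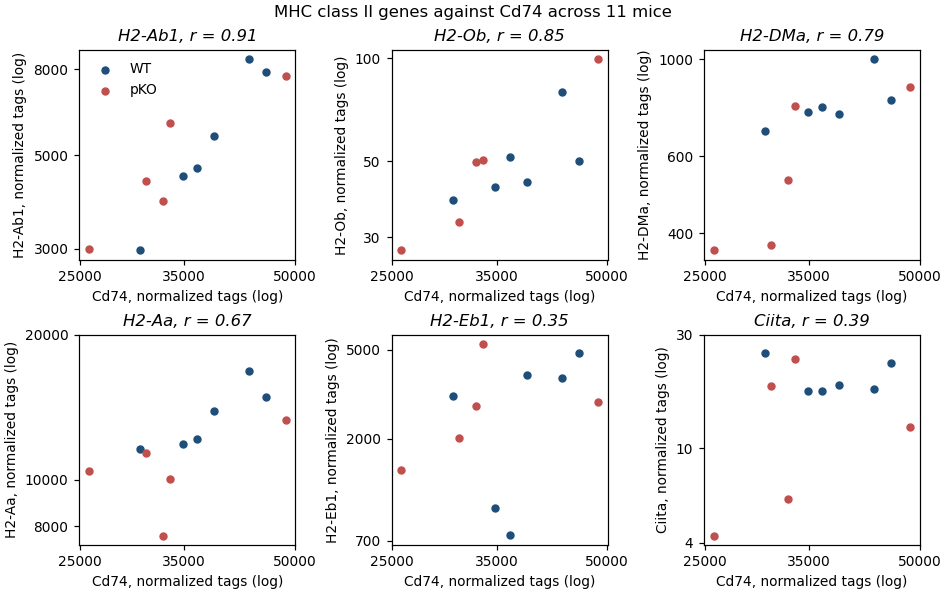
Normalized tags of 6 class II genes against Cd74 in 11 mice, both on log scales, with Pearson r above each panel. H2-Ab1 rises with Cd74 over the whole range, and H2-Eb1 and Ciita scatter.

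**Figure D5:**
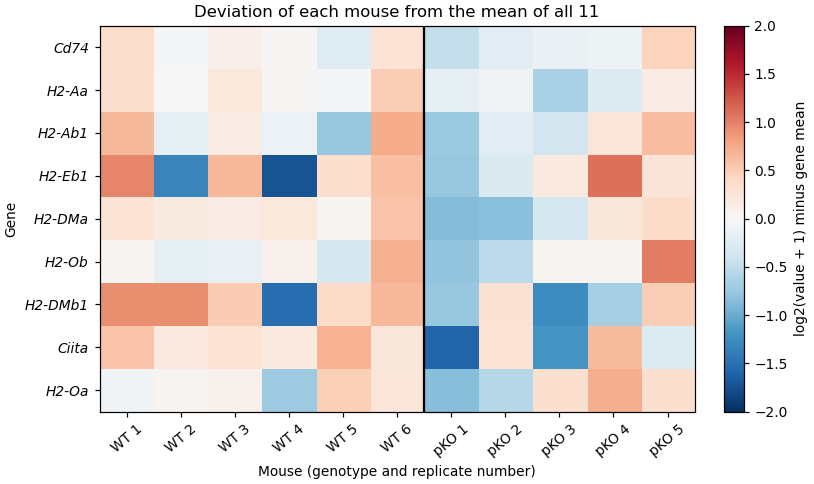
Deviation of each gene in each mouse from its mean over all 11 mice, on the log2(value + 1) scale, with a colour bar from -2 to 2. pKO replicate 1 is below that mean in all 9 genes, and WT replicate 6 is above it in all 9.

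Cells that carry class II were followed through their marker lists. The summed macrophage markers lay between 11074 and 14421 for WT and between 8956 and 13261 for pKO mice (p = 0.0974 by exact permutation), and the dendritic cell markers between 1037 and 1854 and between 829.3 and 1407 (p = 0.0671 by exact permutation). At an unadjusted p of at most 0.05, where 5.35% of all genes were lower and 4.2% higher, 1 of 10 genes of the macrophage list was lower in pKO mice, C1qb, and of the dendritic cell list 1 of 10, Itgax (log2 difference -0.90, limma, adjusted p = 0.441). In the macrophage list the highest means were those of C1qb (4102 over the 11 mice), C1qa (3144) and C1qc (1641), so these weighed most in its sum. Their log2 differences were -0.47, 0.07 and -0.21. Itgax had the highest mean of the dendritic cell list (506 normalized tags), and the paper uses it as a marker of inflammation and macrophage infiltration. The log2 difference was below 0 in 6 of the 10 dendritic cell genes, with Clec9a at -0.73 and Xcr1 at 1.09. Against Cd74, each list was taken as the mean log2(value + 1) of its measured genes, not as the sum. Genes of low level therefore counted as much as abundant ones. Of 7 lists set against Cd74 over 11 mice, 3 passed the permutation test on Pearson r. These were the macrophage list (r = 0.70, adjusted p = 0.0352; rho 0.78, adjusted p = 0.0304), the dendritic cell list (r = 0.72, adjusted p = 0.0352; rho 0.65, adjusted p = 0.0801) and, in the opposite direction, the mesothelial list (r = -0.80, adjusted p = 0.0241; rho -0.76, adjusted p = 0.0304). Without pKO replicates 1 and 5 they were 0.54, 0.51 and -0.60, and with each genotype centred they were 0.66, 0.72 and -0.78, about as large, at an adjusted p of 0.079 for all 3 (exact permutation within genotypes). For the T cell list r was 0.49 over all mice (adjusted p = 0.176) and 0.97 in the 6 WT mice (exact permutation, adjusted p = 0.0486; rho 0.94, adjusted p = 0.117), with 6 of its 10 genes below a mean of 10. The mesothelial sum was 1188 to 1625 in WT and 1445 to 2903 in pKO mice (p = 0.00866 by exact permutation), with 3 of 8 genes higher (Krt19, Upk1b, Msln), and was highest in pKO replicate 1, the mouse lowest in Cd74. The part of these cells in the values of pKO replicate 1 was not tested. Of 10 B cell markers 8 were measured, and their sum ran from 858 to 940 for WT and from 959 to 1551 for pKO mice (p = 0.0022 by exact permutation). Most of that sum was Ebf1, which is also expressed outside B cells (660 ± 46.3 and 902 ± 144), and Ms4a1, Cd22, Fcer2a and Cr2 were below a mean of 10. T cell markers summed to 69.5 to 163 and 83.9 to 135 (exact permutation test, p = 0.714), with Lck lower, and of 6 endothelial markers Kdr was higher at an unadjusted p of at most 0.05.

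Other genes of the pathway were counted in the same way, beside 5.35% of all genes lower and 4.2% higher at an unadjusted p of at most 0.05. Of 20 listed further class II genes 17 were measured, and at an unadjusted p of at most 0.05 pKO mice were lower in 2 and higher in 0, with a median log2 difference of -0.16. Ctss, the cathepsin that trims the invariant chain, averaged 4334 ± 1212 for WT and 2857 ± 348 for pKO (log2 difference -0.57, limma, adjusted p = 0.37). Ctsb, another lysosomal protease, had 31086 ± 1421 and 23358 ± 5994 (log2 difference -0.45, limma, adjusted p = 0.43). Of 20 class I pathway genes 18 were measured, and 5 were lower and 0 higher, with a median of -0.08. Calr, a chaperone of class I loading, averaged 998 ± 158 for WT and 601 ± 157 for pKO (log2 difference -0.76, limma, adjusted p = 0.268), and Psmb10, a subunit of the immunoproteasome, had 1755 ± 167 and 1237 ± 264. The ranges of the genotypes lay apart in both, as in 1.24% of all genes. Of 16 interferon γ pathway genes 14 were measured and 1 was lower, Irf8, a transcription factor of macrophages and dendritic cells, at 262 ± 24.2 and 131 ± 71.8 (log2 difference -1.16, limma, adjusted p = 0.268), with a list median of 0.04. The ranges of the genotypes lay apart for Irf8 too. By its own test of these libraries, the paper lists Irf8 among the genes lower in pKO mice at its adjusted threshold of 0.1. The median over all genes was -0.0025.

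In the 6 WT mice, no member passed the test of a relation to Mest (exact permutation, lowest adjusted p 0.856 for r and 0.525 for rho). Mest lay between 20756 and 27897 in these mice. Without the 2 mice farthest from its median, r ran from -0.70 (Ciita) to 0.99 (H2-DMa). So few mice over so narrow a range cannot show that a relation is absent. The genes most like the abundant class II genes (H2-Aa, H2-Ab1, H2-Eb1 and Cd74) were ranked by r of genotype-centred log2 values over 11 mice, among 9721 genes with a mean of at least 50. That r was taken with the unscaled mean of the abundant class II genes, so H2-Eb1, the most variable of them, weighed most. Ccr2, a chemokine receptor of monocytes, was first (r = 0.93), followed by Ramp1 (0.92), St8sia4 (0.91), Nrarp (0.90), Sirt1 (0.89), Rdm1 (0.89), Tom1 (0.88), Ralgds (0.88), Ttc39b (0.86) and Rftn1 (0.86). These r values are a description of the top of a ranking. Ccr2 itself averaged 610 ± 130 for WT and 483 ± 73.7 for pKO (log2 difference -0.32).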

How the data were processed

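SAGE libraries of 6 WT and 5 pKO mice were analysed, grouped by the labels. The authors mapped tags with modified SOLiD SAGE software, analysed raw counts with DESeq and deposited per-gene signal values that are tag counts divided by 1 size factor per library, and every value was a whole multiple of 1 tag (100% within 0.001). The submitters' processing notes name mm10 and edgeR 3.2.3. Values were tested as log2(value + 1) with limma 3.58.1 in R 4.3.3 (eBayes with trend), two-sided, with Benjamini-Hochberg adjustment over 15453 genes, and single values by exact permutation. A pseudocount of 1 understates changes of low genes. Whole tags were also tested with edgeR 4.0.16 and DESeq2 1.42.0. The limma fit and the permutation and correlation tests were tested on simulated data. Intervals cover spread between mice, and counting errors cover tag counting only. Labels do not state separate litters, and replicate numbers did not pair the mice. Named genes were all members, further pathway genes at an unadjusted p of at most 0.05, up to 3 per other list, and the 10 most alike. The members and lists were chosen with earlier results of these data known.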

Additional observations from a re-analysis of the deposited data

Results flagged for a closer look

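H2-Ob, a chain of the inhibitor of H2-DM, stood apart in 1 mouse. WT replicate 6 had 79.5 normalized tags, while the other 5 WT mice had 38.6 to 51.5. Of 18 groups of values tested in this way 1 was found, where chance gives 0.9.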

How the results depend on the processing

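No member passed an adjusted p of at most 0.1 in any alternative. Genes lower in pKO mice numbered 4, and 8 with a mean of at least 10, with a mean of at least 50 or without the trend, 75 with DESeq2, and 2 to 78 with 1 mouse left out (78 without pKO replicate 2). Genes higher numbered 1, 3 without the trend, 63 with DESeq2 and 1 to 28 with 1 mouse left out. With the replicate block, which leaves out WT replicate 6, these were 1 and 0, as without pKO replicates 1 and 5 together (chosen after seeing the data). Replicate numbers did not pair mice (mean r of deviations -0.021 for the same number, 0.0039 for others, 1 of 5 mice best with its own). Members lower at an unadjusted p of at most 0.05 numbered 3, 1 with edgeR or DESeq2, 0 with the replicate block and 0 to 3 with 1 mouse left out. Total-count scaling gave 1015 lower and 463 higher genes at that p, beside 827 and 649. The log2 difference of H2-Oa turned to 0.010 (pseudocount 10), 0.070 (edgeR), 0.076 (DESeq2), 0.026 (replicate block, and without WT replicate 6 alone) and 0.15 (without pKO replicates 1 and 5), and ran from -0.20 to 0.19 with 1 mouse left out. That of H2-Ob turned to 0.034 (edgeR), 0.035 (DESeq2) and 0.065 (replicate block, the same value as without WT replicate 6 alone), and ran from -0.34 to 0.12. That of H2-Eb1 ran from -0.15 to 0.40, and the log2 ratio of Cd74 to H2-Ab1 from -0.094 to 0.10. Members correlated with Cd74 numbered 4, and 2 to 4 with 1 mouse left out. The r of Ciita ran from -0.035 (without pKO replicate 1) to 0.54, and without that mouse H2-DMa lost its call (r = 0.68). H2-Aa lost its call in 10 of 12 alternatives. The cause was not tested. H2-Oa rested on 2 to 8 tags per library.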
